A study of Mus musculus and Mus musculus
Oryx dammah with 30 samples.

Results

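Transcripts of 10 genes of the pluripotency network were followed in RNA-seq of mouse nuclear transfer (NT) embryos. The genes were *Pou5f1*, *Nanog*, *Esrrb*, *Tfcp2l1*, *Sall4*, *Zfp42*, *Tdgf1*, *Nr5a2*, *Zfp281* and *Tbx3*. They were taken by name, and all 10 were found among the 53023 genes of the four-cell and replication tables and the 55364 genes of the two-cell table. In each experiment C2C12 myoblasts, a muscle precursor line of the C3H strain, had been fused with embryos of C57BL/6 oocytes and DBA/2 sperm arrested with 0.1 μg/mL demecolcine, an inhibitor of microtubule assembly. The recipient nuclei stayed in the embryo, so a value sums transcripts of recipient and donor genomes. The 24 libraries analysed here, of 30 in the series, fell into 3 experiments, and each library was made from a pool of embryos.

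In the four-cell experiment pools of 3 embryos that had received donor cells from 46 hpi were cultured for 24 h, either without inhibitor (untreated, n = 3 libraries) or with 2.5 μg/mL α-amanitin, a toxin that blocks RNA polymerase II (n = 3). The two-cell experiment compared the same conditions in pools of 5 embryos, with NT started at 21 hpi (early) or 30 hpi (late). Its 12 columns show α-amanitin by name but not early or late, so 6 untreated and 6 treated libraries were compared. They carry 2 sets of names, with R (RAm1 to RAm3, r1, r2, R3) and without R (Am1 to Am3, NT1 to NT3), whose meaning is not given. The replication experiment compared pools of 4 untreated four-cell NT embryos called D (n = 3) and DR (n = 3), names that the labels do not spell out. By the paper, NT was done either before or after the embryos replicated their DNA, so the groups differ in the time of transfer. Libraries are called by their column names, S for the four-cell experiment. Columns were tied to groups and not to single samples, and where separate cultures are not documented for a column, a p-value measures only the spread between libraries.

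Pluripotency is the capacity of a cell to form all tissues of the embryo proper. Pou5f1 (OCT4) and Nanog are the transcription factors at its centre, and Esrrb, Tfcp2l1, Sall4, Zfp42 (REX1), Tbx3 and Zfp281 act with them in embryonic stem cells. Nr5a2 is an orphan nuclear receptor that binds near *Pou5f1* and takes part in zygotic genome activation. Tdgf1 (Cripto) is not a transcription factor but a membrane co-receptor for the growth factor Nodal.

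The windows upstream of 5 genes are shown to set genes that passed the test against α-amanitin in four-cell embryos (*Zfp42*, *Nr5a2* and *Tfcp2l1*) beside *Pou5f1* and *Nanog*, which did not. Each line gives the 250 bases before a RefSeq start of the gene (GRCm38.p6), the more upstream of 2 listed starts for *Nr5a2*, *Pou5f1* and *Nanog*, written 5′ to 3′ on the gene's strand. Capitals mark the octamer ATGCAAAT of POU factors or its core ATGCAAA, on either strand, and the TATA box TATAAAA.
Zfp42 chr8:43307010-43307259 strand -: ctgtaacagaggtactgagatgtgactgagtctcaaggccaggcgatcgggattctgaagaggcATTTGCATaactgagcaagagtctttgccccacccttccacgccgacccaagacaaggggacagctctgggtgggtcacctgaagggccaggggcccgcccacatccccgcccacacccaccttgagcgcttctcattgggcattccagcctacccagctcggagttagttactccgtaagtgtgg
Nr5a2 chr1:136960449-136960698 strand -: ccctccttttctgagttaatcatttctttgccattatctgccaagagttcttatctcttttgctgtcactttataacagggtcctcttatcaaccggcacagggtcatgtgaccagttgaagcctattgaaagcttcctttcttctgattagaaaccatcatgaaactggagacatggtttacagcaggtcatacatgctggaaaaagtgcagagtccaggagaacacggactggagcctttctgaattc
Tfcp2l1 chr1:118627695-118627944 strand +: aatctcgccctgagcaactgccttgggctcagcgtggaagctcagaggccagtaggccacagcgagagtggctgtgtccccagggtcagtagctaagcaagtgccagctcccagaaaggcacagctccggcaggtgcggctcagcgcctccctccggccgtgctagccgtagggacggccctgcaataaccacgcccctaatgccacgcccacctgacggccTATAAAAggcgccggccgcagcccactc
Pou5f1 chr17:35505782-35506031 strand +: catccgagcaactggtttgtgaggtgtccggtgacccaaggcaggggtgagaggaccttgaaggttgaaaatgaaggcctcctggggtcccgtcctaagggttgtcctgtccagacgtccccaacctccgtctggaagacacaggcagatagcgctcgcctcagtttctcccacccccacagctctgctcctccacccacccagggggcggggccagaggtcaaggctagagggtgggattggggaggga
Nanog chr6:122707239-122707488 strand +: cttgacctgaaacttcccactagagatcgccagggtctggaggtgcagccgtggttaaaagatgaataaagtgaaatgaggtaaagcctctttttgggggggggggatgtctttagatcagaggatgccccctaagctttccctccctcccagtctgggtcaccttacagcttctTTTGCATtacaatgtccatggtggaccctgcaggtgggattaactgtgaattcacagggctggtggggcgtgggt
The octamer lay 186 to 179 bases before the start of *Zfp42* in reverse orientation, and 1.6% of 32851 RefSeq promoters held it in the same length. Its core, which lies within the octamer, was also found 75 to 69 bases before the *Nanog* start shown, the same bases lying 151 to 145 before its other start, and occurred in 4.12% of all promoters. *Tfcp2l1* had TATAAAA 28 to 22 bases before its start, a string present on either strand in 4.98%. Promoters were listed for 8 of the 10 genes, 12 in all. None held TCAAGGTCA (the site shared by Esrrb and Nr5a2, 0.387% of all promoters), AAGGTCA (its shorter form, 4.08%), GGGGAGGGG (Zfp281, 5.75%), AGGTGTGA (T-box factors, 1.12%) or CCATNTT (shared by Yy1 and Zfp42, 12.4%).

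Expression was given as FPKM, reads scaled to gene length and to the counted reads of the library, so levels of different genes can be compared within a table. The four-cell libraries held 1136771 to 3101002 counted reads, the two-cell libraries 4712268 to 10503779 and the replication libraries 2603946 to 19181387. Each of the 10 genes had 0 to 437 reads in a four-cell library, 0 to 1652 in a two-cell library and 18 to 2042 in a replication library. Of 20 markers of the myoblast donor, 17 were above 0 in a treated and 14 in an untreated four-cell library, with *Col1a1* and *Myf6* at 0 in all, and their summed FPKM was 190 to 2270 with and 228 to 733 without α-amanitin. All 15 oocyte and early embryo markers were detected, while 7 of 8 cumulus cell markers were at 0 in every treated and 6 in every untreated four-cell library.

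In untreated four-cell NT embryos all 10 genes were detected in each library, over a range of levels that ran from *Tdgf1* to *Esrrb*. The mean FPKM was 50.8 ± 15.8 (SD, n = 3) for *Tdgf1*, 34.7 ± 0.899 for *Zfp42*, 26.8 ± 9.91 for *Zfp281* and 17.9 ± 2.66 for *Nr5a2*. *Pou5f1* followed with 11.2 ± 4.76, *Tfcp2l1* with 9.46 ± 4.42, *Sall4* with 7.19 ± 0.234, *Tbx3* with 4.85 ± 0.887, *Nanog* with 4.20 ± 1.90 and *Esrrb* with 1.75 ± 0.446. The libraries of *Zfp42* lay above those of *Zfp281*, and those of *Sall4* above those of *Tbx3*. All other neighbours in this order overlapped.

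To ask which of these transcripts depended on new transcription, untreated and α-amanitin-treated four-cell embryos were compared. *Zfp42*, *Nr5a2*, *Tbx3* and *Tfcp2l1* were upregulated without the inhibitor, each at least 4-fold on the log2(FPKM + 1) scale. *Tbx3* passed the filter on low values (3 or more libraries with an FPKM of 1 or higher) only through the untreated libraries, so it had to differ to be tested. With the median-of-ratios scaling *Tfcp2l1* (1.82) and *Tbx3* (1.98) remained called but fell short of 4-fold. *Tfcp2l1* also fell short of 4-fold, and lost its call, without S18 (1.96) or S7 (1.74). *Pou5f1* and *Nanog*, the factors at the centre of the network, did not pass the test, and neither did *Sall4*, *Zfp281*, *Esrrb* and *Tdgf1*. Of 9884 genes tested, 11.1% were called higher without α-amanitin, 1.13% lower and 6.2% both called and at least 4-fold higher. Of the genes called, 90.7% were higher, and 77.3% after scaling by median ratios over genes. The median log2 change of all genes tested was 0.37 and that of the 10 genes 1.56. In such bulk samples fewer cells that express a gene and less RNA per cell cannot be told apart. The oocyte and early embryo markers, with *Dppa3* most of the sum, added up to 12230 to 16210 FPKM with and 8754 to 9959 without α-amanitin, and their part in these differences was not tested.

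**Figure D1:**
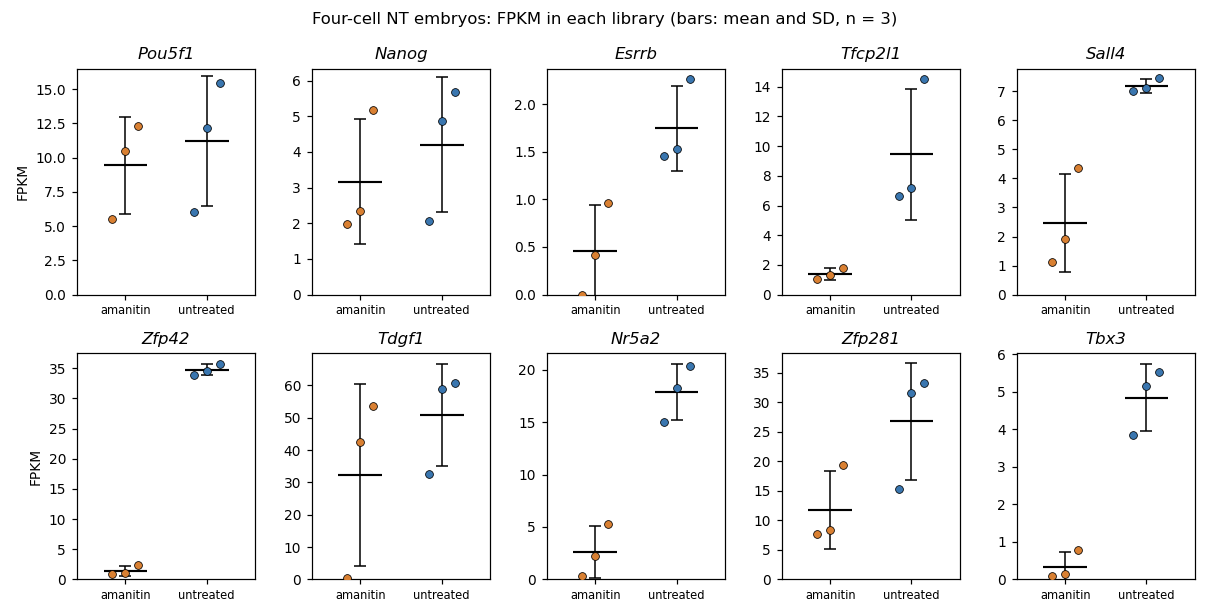
FPKM (linear vertical axis, its own scale for each gene) of the 10 genes in 3 α-amanitin-treated (orange) and 3 untreated (blue) four-cell libraries, one point a library, with lines for the mean and SD. *Zfp42* sits between 0.857 and 2.34 with α-amanitin and between 33.9 and 35.7 without, while the points of *Pou5f1* and *Nanog* overlap.

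*Zfp42* (mm10 chr8:43295063-43306980, minus strand), a zinc finger factor used as a marker of the undifferentiated state, had the widest gap. Its FPKM was 0.857 in S16, 2.34 in S18 and 1.00 in S8 with α-amanitin, from 3 to 5 reads a library. Untreated, it was 35.7 in S15, 34.6 in S17 and 33.9 in S7. The treated mean was thus 4.03% of the untreated mean, and the untreated libraries lay within a narrow range. The log2 change was 3.95 ± 0.379 (SE), with an adjusted p of 0.00249 by limma.

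*Nr5a2* (chr1:136842571-136960448, minus strand) was measured at 5.25, 0.298 and 2.24 FPKM in the treated and 15.0, 18.3 and 20.3 in the untreated libraries. S18, the shallowest library, held only 2 reads of it, and the groups did not overlap. It had a log2 change of 2.66 ± 0.570 with an adjusted p of 0.0227. In 3 fits that left out 1 untreated library each (S15, S17 or S7) the adjusted p was 0.0843, 0.101 and 0.103, with changes of 2.77, 2.64 and 2.56.

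*Tbx3* (chr5:119670669-119684724, plus strand), a T-box repressor and activator that sustains self-renewal, was at 0.779, 0.133 and 0.0950 FPKM with α-amanitin, in S18 and S8 from 1 read each. Untreated libraries had 3.84, 5.53 and 5.17. The log2 change was 2.16 ± 0.395 (adjusted p = 0.0144), and the adjusted p was 0.0669 when all genes were tested without the filter. Its antisense neighbour *Tbx3os1*, with which it shares the start of the gene, reached at most 0.556 FPKM in four-cell libraries.

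*Tfcp2l1* (chr1:118627945-118685168, plus strand), a Grainyhead-like factor of naive pluripotency, had treated values of 1.33, 1.03 and 1.80 FPKM and untreated values of 6.65, 7.18 and 14.6. S7 was well above the other untreated libraries, and the groups did not overlap. It had a log2 change of 2.07 ± 0.441 (adjusted p = 0.0222). It missed the threshold with no filter (0.0669) and without S18 (0.0639), S15 (0.073), S17 (0.0859) or S7 (0.105).

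*Sall4* (chr2:168748332-168767943, minus strand), a zinc finger factor needed for growth of the inner cell mass, was at 4.37, 1.91 and 1.14 FPKM with and at 7.45, 7.01 and 7.10 without α-amanitin. *Esrrb* (chr12:86361117-86521628, plus strand), a nuclear receptor that shares its DNA site with Nr5a2, was at 0.960, 0 and 0.416 with and at 1.45, 2.26 and 1.53 without it, and likewise passed the filter only through the untreated group. Neither gene overlapped between the groups, but the adjusted p was 0.0869 for *Sall4* (log2 change 1.35 ± 0.454) and 0.136 for *Esrrb* (0.95 ± 0.380). Groups that did not overlap, with untreated libraries higher, were seen for 6 of the 10 genes and for 27.6% of all genes tested. The 6 include *Tbx3* and *Esrrb*, whose groups could not overlap once they had passed the filter through the untreated libraries alone.

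*Zfp281* (chr1:136624901-136630053, plus strand), a zinc finger factor that binds GC-rich promoters, was at 19.3, 8.37 and 7.65 FPKM in treated and 15.4, 33.3 and 31.7 in untreated libraries. S16 exceeded the untreated library S15, and the log2 change of 1.16 ± 0.455 had an adjusted p of 0.132. S16, the deepest library, held the highest treated value for 7 of the 10 genes. Without S16 the adjusted p was 0.0484 for *Zfp281* and 0.0387 for *Sall4*, with log2 changes of 1.55 and 1.72, and 6 of the 10 genes were called, against 14.4% of all genes tested called higher without that library.

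*Tdgf1* (chr9:110939603-110946158, minus strand) was listed at 53.7, 0.336 and 42.5 FPKM with α-amanitin and at 58.9, 60.9 and 32.6 without. S18 stood far below every other library, with 1 read counted against 437 in S16 and 177 in S8. The log2 change was 1.76 ± 1.21 (adjusted p = 0.373) and 0.03 ± 0.380 when S18 was left out. The processed pseudogene *Tdgf1-ps1* ran from 0 to 18.3 FPKM in treated and from 4.48 to 12.7 in untreated libraries, so reads of *Tdgf1* may have been split with a near-identical copy and its level is uncertain.

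*Pou5f1* (chr17:35506018-35510772, plus strand) ranged from 5.48 to 12.3 FPKM with and from 6.05 to 15.4 without α-amanitin, a log2 change of 0.21 (95% interval -0.833 to 1.25, adjusted p = 0.798). *Nanog* (chr6:122707489-122714633, plus strand) ranged from 1.97 to 5.18 with and from 2.06 to 5.68 without, a change of 0.32 (-0.796 to 1.44, adjusted p = 0.701). A mean of 84.1% of the untreated FPKM of *Pou5f1* and 75.3% of that of *Nanog* was found in treated embryos, against 14.5% for *Nr5a2*, 14.7% for *Tfcp2l1* and 6.93% for *Tbx3*. With the median-of-ratios scaling the change of *Pou5f1* was -0.08, so its direction is not settled. FPKM are shares of a library, and with no spike-in RNA listed in the four-cell table, less RNA per embryo could not be seen.

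**Figure D2:**
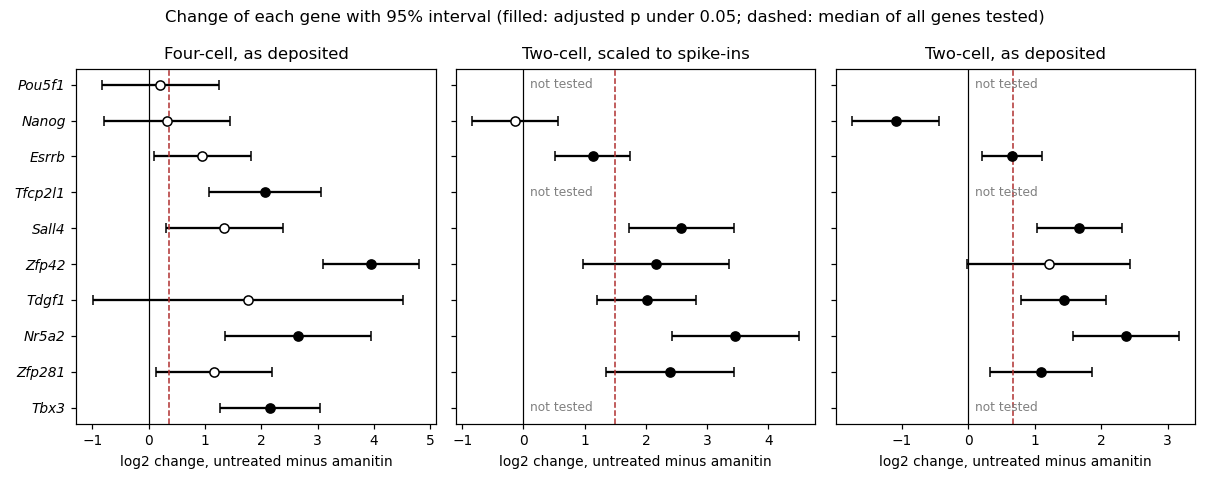
Log2 change, untreated minus α-amanitin, of each gene with its 95% interval in four-cell embryos (left), two-cell embryos scaled to spike-ins (middle) and two-cell embryos as deposited (right), on horizontal axes that differ between panels. The dashed line is the median of all genes tested, at 0.37, 1.49 and 0.67, and *Nanog* lies left of it in the 3 panels, called only in the right one.

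Of 35 further pluripotency genes 19 were tested in four-cell embryos, and 4 were upregulated, with none lower and a median log2 change of 0.91. Over all genes tested 11.1% were called higher and the median was 0.37, against which the counts of this and the other gene lists are to be read. Among them were *Klf2* (5.01 ± 0.447, adjusted p = 0.00202) and *Klf5* (2.80 ± 0.575, adjusted p = 0.0197), which encode Krüppel-like factors. Of 17 genes of Nodal signalling, in which Tdgf1 acts, 6 were tested and 3 rose, the signal transducers *Smad2* (3.23) and *Smad4* (1.42) and the protease *Pcsk6* (1.39).

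Among 19 paralogs of the 10 genes 7 were tested and 3 rose, *Zfp148* (2.30), *Tbx20* (1.68) and *Yy1* (1.61). Of the genes of the first lineages, *Hand1* (3.00), *Krt18* (2.85) and *Tfap2c* (2.03), 3 of 6 trophectoderm genes tested, rose, and so did *Gata6* (4.10) and *Dab2* (3.54), the 2 primitive endoderm genes tested. Of 14 oocyte and early embryo markers tested 0 were called higher and 1 was called lower, with a median of -0.67. None of 9 donor myoblast markers was called, with a median of -0.41, though *Acta2* was at -1.84 ± 0.661 (adjusted p = 0.105 by limma). With so few genes these counts are near the 11.1% of all genes called higher.

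In two-cell NT embryos 7 of the 10 genes passed the filter, and *Pou5f1*, *Tfcp2l1* and *Tbx3* stayed below it. Scaled to 47 spike-ins, *Nr5a2*, *Sall4*, *Zfp281*, *Zfp42*, *Tdgf1* and *Esrrb* were higher without α-amanitin and *Nanog* did not pass the test. *Tdgf1* and *Esrrb* passed the filter only through the untreated libraries and so had to differ to be tested. This was a transcriptome-wide shift, with 71.4% of 17196 genes called higher, 1.63% called lower and a median log2 change of 1.49. The count of 6 among 7 is therefore near the background. On FPKM as deposited 38.9% were called higher and 8.51% lower, and the median was 0.67. Of the genes called, 97.8% were higher after scaling, 82.1% as deposited and 60.7% by the median of ratios. The values that follow are FPKM as deposited unless said to be scaled.

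*Nr5a2* exceeded the shift in both fits. Its FPKM was 2.05, 3.36 and 3.22 in Am1 to Am3 and 16.5, 22.8 and 4.69 in NT1 to NT3. In the names with R it was 2.03, 1.68 and 1.02 in RAm1 to RAm3 and 15.8, 19.8 and 20.8 in r1, r2 and R3. NT3 stood well below the other untreated libraries but above every treated one. *Nr5a2* had a log2 change of 3.46 ± 0.495 after scaling (adjusted p = 5.52e-05), 1.97 above the median of all genes, and 2.38 ± 0.374 as deposited (adjusted p = 0.000522). By the median of ratios the change was 1.71 (adjusted p = 0.00327), 1.48 above the median, and the groups overlapped.

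*Sall4* showed a like pattern at a lower level, with 1.28, 1.53 and 0.458 FPKM in Am1 to Am3 against 5.99, 4.76 and 2.07 in NT1 to NT3, and 1.51, 0.532 and 0.672 in RAm1 to RAm3 against 6.16, 8.05 and 6.00 in r1, r2 and R3. NT3 was again the lowest untreated library. The log2 change was 2.58 ± 0.408 after scaling (adjusted p = 0.000102) and 1.67 ± 0.300 as deposited (adjusted p = 0.0012). By the median of ratios it was 1.09 (adjusted p = 0.0148), and the groups overlapped. *Nr5a2* and *Sall4* kept their calls in the 24 alternatives each was tested in.

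*Zfp281* depended on the set of names. It measured 11.3, 8.75 and 13.3 FPKM in Am1 to Am3 and 15.0, 16.5 and 13.4 in NT1 to NT3, but 13.0, 4.59 and 7.16 in RAm1 to RAm3 and 24.4, 28.4 and 34.4 in r1, r2 and R3. The untreated mean was 15.0 ± 1.51 (SD, n = 3) without and 29.1 ± 5.06 with R. Over both sets the log2 change was 2.39 ± 0.498 after scaling (adjusted p = 0.000581), 1.10 ± 0.360 as deposited (adjusted p = 0.0233) and 0.33 by the median of ratios (adjusted p = 0.43). The amanitin effect differed between the sets by 2.47 ± 0.510 on the log2 scale after scaling (adjusted p = 0.00121) and by 1.38 ± 0.444 as deposited (adjusted p = 0.0237). Such a difference was called for 53.2% of all genes after scaling and for 44.5% as deposited, and its median over all genes was large enough that *Zfp281* exceeded it by only 1.06 and 0.62.

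**Figure D3:**
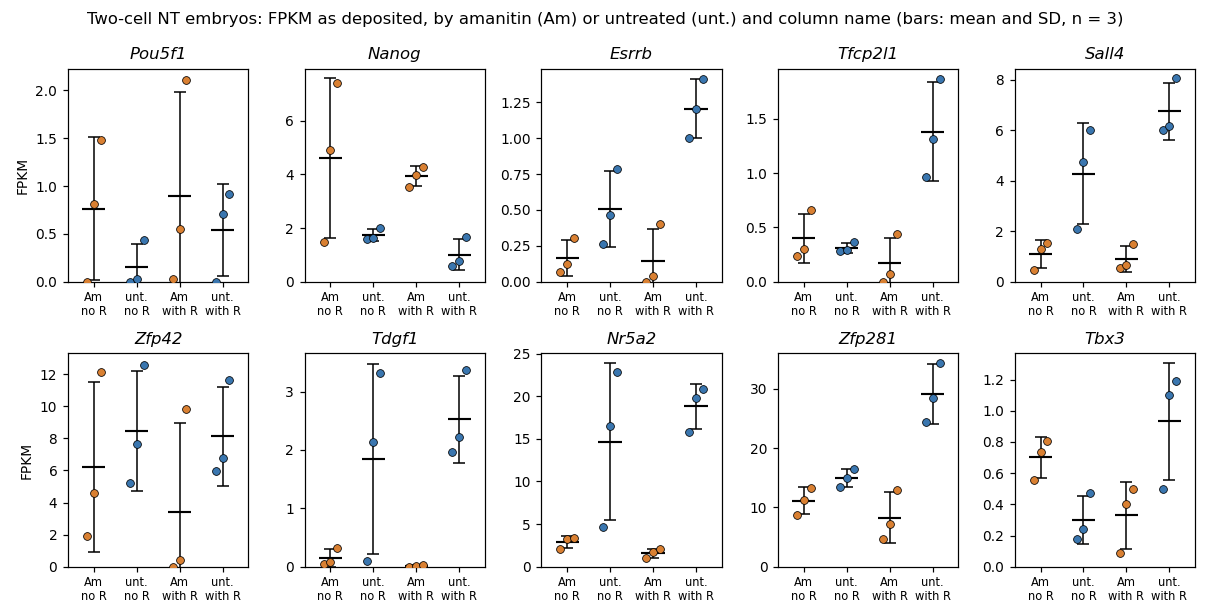
FPKM as deposited (linear vertical axis, its own scale for each gene) in 12 two-cell libraries, 3 for each combination of α-amanitin (orange) or untreated (blue) and column names without or with R, with lines for the mean and SD. *Nr5a2* and *Sall4* are higher without α-amanitin in both name sets, whereas *Tfcp2l1* reaches 0.960 to 1.86 FPKM only in the untreated libraries with R.

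*Esrrb* and *Tdgf1* were near the lower limit of detection with α-amanitin. *Esrrb* was at 0.0702 to 0.308 FPKM in Am1 to Am3 and 0.262 to 0.787 in NT1 to NT3, and at 0 to 0.402 in RAm1 to RAm3 and 1.00 to 1.41 in r1, r2 and R3. The log2 change of 1.13 ± 0.289 after scaling (adjusted p = 0.00235) lay below the median of all genes, and it was 0.66 ± 0.214 as deposited (adjusted p = 0.0229) and 0.41 by the median of ratios (adjusted p = 0.114). *Tdgf1* was at 0 to 0.324 FPKM (median 0.0374) with and 0.101 to 3.38 (median 2.18) without α-amanitin, and NT3, at 0.101, overlapped the treated group. Its log2 change was 2.01 ± 0.384 after scaling (adjusted p = 0.000327) and 1.44 ± 0.304 as deposited (adjusted p = 0.00295). The copy *Tdgf1-ps1* was at 0 FPKM in all treated and at 0 to 2.71 in untreated two-cell libraries, so the level of *Tdgf1* is uncertain here too. In the names with R no treated library held as much as 1 read of *Tdgf1*, and the untreated mean of 2.52 FPKM was at least 18.2-fold higher than the level of 3 reads in each treated library.

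*Zfp42*, which was nearly lost under α-amanitin in four-cell embryos, varied widely in treated two-cell embryos. It was at 1.92, 12.1 and 4.58 FPKM in Am1 to Am3 and at 0.394, 9.82 and 0 in RAm1 to RAm3. Untreated libraries ranged from 5.19 to 12.6, so Am2 and RAm2 lay within the untreated range. The log2 change was 2.17 ± 0.568 after scaling (adjusted p = 0.00279) and 1.21 ± 0.578 as deposited (adjusted p = 0.0925). Groups that did not overlap after scaling, with untreated libraries higher, were found for *Esrrb*, *Sall4*, *Nr5a2* and *Zfp281* and for 35.4% of all genes tested.

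*Nanog* went against the general shift. Its FPKM was 7.42, 1.48 and 4.91 in Am1 to Am3 and 4.28, 3.99 and 3.54 in RAm1 to RAm3, but 2.01, 1.61 and 1.62 in NT1 to NT3 and 0.601, 1.67 and 0.770 in r1, r2 and R3. All treated libraries but Am2 were above the 6 untreated ones. As a share of the library it was lower without α-amanitin by 1.10 on the log2 scale (change -1.10 ± 0.308, adjusted p = 0.0122). Scaled to spike-ins the change was -0.14 ± 0.331 (adjusted p = 0.716), which was 1.63 below the median of all genes. Of 15 oocyte and early embryo markers, 13 were likewise lower without α-amanitin as deposited (median -1.43) and *Dppa3* was higher, while after scaling 1 was lower and *Dppa3* again higher. Their summed FPKM was 2042 to 8201 in treated and 7502 to 12410 in untreated libraries, with *Dppa3* at a mean of 4040 and 8840, and their part in the *Nanog* value was not tested.

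The 3 genes below the filter were rare in two-cell embryos. *Pou5f1* was at 0 to 1.49 FPKM in Am1 to Am3 and 0 to 0.434 in NT1 to NT3, and at 0.0318 to 2.11 in RAm1 to RAm3 and 0 to 0.916 in r1, r2 and R3, overlapping in both sets. The antisense gene *Gm19553* inside it was at 0 to 3.99 FPKM in treated and 0 to 1.25 in untreated libraries, and reads of the pair cannot be told apart. The means of *Tbx3* ran in opposite directions in the name sets as deposited. *Tbx3* was at 0.555 to 0.809 in Am1 to Am3 and 0.179 to 0.473 in NT1 to NT3, but at 0.0855 to 0.497 in RAm1 to RAm3 and 0.501 to 1.19 in r1, r2 and R3. Neither set overlapped, but with R the nearest libraries, RAm3 and r1, were almost equal. How many of all genes did not overlap within a set was not determined. Scaled to spike-ins, the libraries without R overlapped, at 0.358 to 0.663 with and 0.167 to 0.815 without α-amanitin. *Tbx3os1* was at 0.0339 to 1.31 FPKM in treated and 0.111 to 0.546 in untreated two-cell libraries, and reads where it overlaps *Tbx3* cannot be told apart. *Tfcp2l1* was at 0.282 to 0.366 in NT1 to NT3, within the range of Am1 to Am3 (0.235 to 0.659), and at 0.960 to 1.86 in r1, r2 and R3 against 0 to 0.437 in RAm1 to RAm3. When all genes were tested without the filter, the scaled log2 change was 0.96 ± 0.335 for *Tfcp2l1* (adjusted p = 0.0399), 0.61 ± 0.297 for *Tbx3* (adjusted p = 0.137) and 0.03 ± 0.333 for *Pou5f1* (adjusted p = 0.944).

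NT3 differed from NT1 and NT2 in other respects. It held 6.26% spike-in reads, against 3.15% and 4.22%, and its 20 donor myoblast markers summed to 4570 FPKM, against 1680 and 1010. Their part in its low *Nr5a2*, *Sall4* and *Tdgf1* values was not tested. With NT3 left out, the scaled log2 change was 3.90 ± 0.353 for *Nr5a2*, 2.91 ± 0.310 for *Sall4* and 2.39 ± 0.239 for *Tdgf1*, and all 6 calls remained. The donor markers summed to 1200 to 2560 FPKM in the 6 treated libraries and to 168 to 549 in r1, r2 and R3. *Lgals1* made up most of the donor sums, with a mean of 1590 FPKM in treated and 1050 in untreated libraries. Of 11 donor markers tested, 5 were called higher without α-amanitin after scaling and 2 as deposited, with 0 lower. Over all genes 71.4% and 38.9% were called higher. *Col3a1* (log2 change 4.03 scaled, 3.08 as deposited) and *Fn1* (3.89 and 2.77) were called in both fits.

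Among the 35 further pluripotency genes 24 were tested in two-cell embryos, and 17 rose after scaling and 9 as deposited, with none lower in either fit. These shares are near those of all genes, of which 71.4% were called higher after scaling and 38.9% as deposited, and the counts of the other lists stand against the same background. *Fbxo15* (6.27 ± 0.757 after scaling, 4.98 ± 0.646 as deposited), *Sox15* (5.69 and 4.68) and *Dppa5a* (4.65 and 3.26) changed most after scaling. The median log2 change of the 24 genes was 1.53 after scaling, close to the 1.49 of all genes. For Nodal signalling 4 of 5 genes rose after scaling and 2 as deposited, *Smad2* and the receptor gene *Acvr2a*. Of 8 paralogs 6 rose after scaling, among them *Yy1* (3.10), and as deposited 4 rose and *Esrrg* was lower (-1.33). Of 6 trophectoderm genes tested 4 rose in both fits, among them *Tfap2c*, *Tead4* and *Hand1*, while *Krt18* was lower as deposited (-0.95). All 4 primitive endoderm genes tested rose after scaling and 2 as deposited.

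Two-cell and four-cell tables were normalised separately, so levels are set side by side without a test. *Tdgf1* averaged 2.19 ± 1.19 FPKM (SD, n = 6) in untreated two-cell and 50.8 in untreated four-cell libraries, *Pou5f1* 0.347 ± 0.400 and 11.2, *Tfcp2l1* 0.846 ± 0.651 and 9.46, and *Tbx3* 0.615 ± 0.431 and 4.85. *Zfp42* averaged 8.29 ± 3.07 and 34.7, *Nanog* 1.38 ± 0.560 and 4.20, and *Esrrb* 0.855 ± 0.438 and 1.75. *Nr5a2* (16.7 ± 6.47 and 17.9), *Zfp281* (22.0 ± 8.43 and 26.8) and *Sall4* (5.51 ± 1.99 and 7.19) stood at like levels in both. The two-cell mean of *Zfp281* pools 15.0 in the names without R and 29.1 in those with R. Of the 7 genes tested in both experiments *Zfp42* and *Nr5a2* were called in both, against 9.22% of 9019 genes tested in both. For *Zfp42* the two-cell call held after scaling to spike-ins and not as deposited (adjusted p = 0.0925) or by the median of ratios (adjusted p = 0.377).

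The genes whose levels ran most like these 2 were sought among 9015 others, by the mean of Pearson's r over the 6 four-cell and over the 12 two-cell libraries, which share the split by α-amanitin. They were *Atg14* (mean r 0.962), *0610005C13Rik* (0.961) and *Gm8355* (0.957) for *Nr5a2*, and *Mtfr2* (0.936), *Eif4a2* (0.899) and *Zfp617* (0.887) for *Zfp42*. Of the 7 genes tested in both experiments *Sall4* was nearest to *Nr5a2* (0.92), and *Nr5a2* was nearest to *Zfp42* (0.714), where 9.77% of all genes were closer. *Nanog* ran with *Nr5a2* in the four-cell (r = 0.442) and against it in the two-cell libraries (r = -0.755).

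In the replication experiment no difference between DR and D was detected for any of the 10 genes. All passed the filter, and 0 of 14570 genes were called (0% of genes tested, with 88 at an unadjusted p under 0.05 by limma). Scaling to 19 spike-ins, those above 0 in all 6 libraries, divided the FPKM of a library by 0.0937 to 5.6, and log2 changes, DR minus D, were -1.79 to -0.76 with standard errors of 1.54 to 2.32. Differences of severalfold were therefore not detectable with this scaling. As deposited the standard errors were 0.264 to 0.452, 897 genes had an unadjusted p under 0.05 and none was called.

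**Figure D4:**
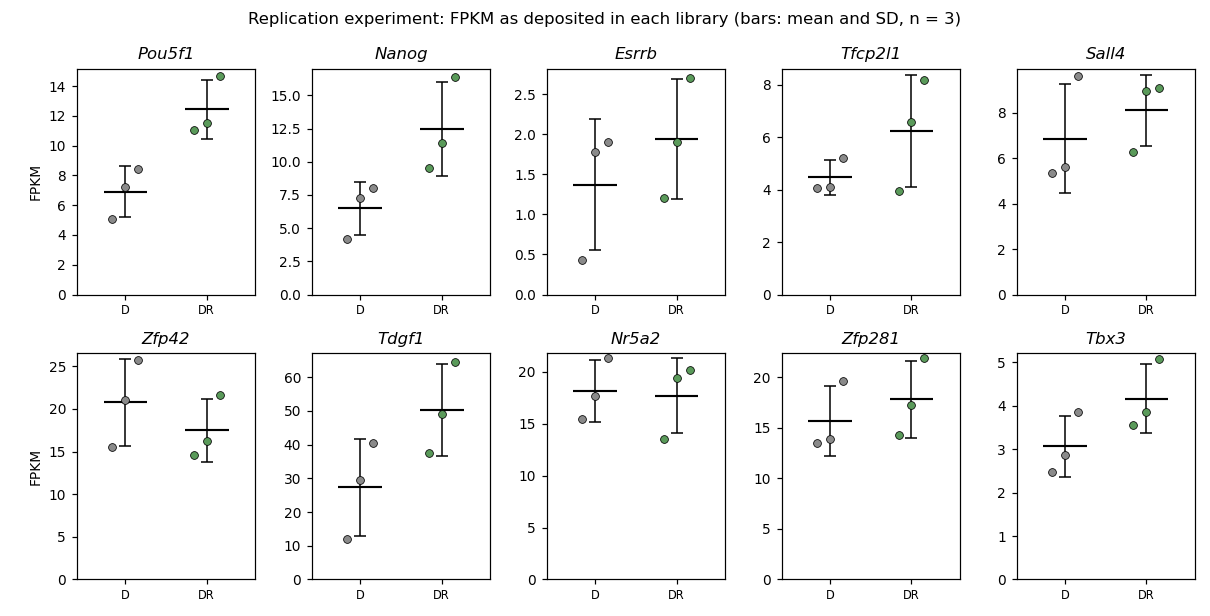
FPKM as deposited (linear vertical axis, its own scale for each gene) in 3 D (grey) and 3 DR (green) libraries of untreated four-cell NT embryos, with lines for the mean and SD. The groups overlap for all genes but *Pou5f1* and *Nanog*, whose 3 DR points lie above the 3 D points.

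*Pou5f1* was at 14.7, 11.5 and 11.1 FPKM in DR1 to DR3 and at 7.25, 8.42 and 5.07 in D1, D4 and D5. *Nanog* was at 16.4, 9.57 and 11.4 in DR and 7.28, 8.0 and 4.22 in D. These were the only 2 of the 10 genes whose groups did not overlap as deposited, with DR higher, which was so for 8.21% of all genes. Marker sums also separated these libraries, with donor myoblast markers at 264.2 to 444 FPKM in DR and 485.1 to 567.3 in D. Oocyte and early embryo markers summed to 3410 to 4067 and 4605 to 5761, and cumulus cell markers to 16.5 to 20.26 and 10.64 to 11.34. Single genes made up most of each sum, *Lgals1* (mean 183 in DR and 351 in D), *Dppa3* (3720 and 4960) and *Amhr2* (17.4 and 10.2). Other markers went against the sum of their list, such as *Col3a1* (3.31 and 0.999) and *Zp3* (13.5 and 10.3). The part of these markers in the result was not tested. The log2 changes as deposited were 0.78 ± 0.278 for *Pou5f1* (unadjusted p = 0.026) and 0.85 ± 0.330 for *Nanog* (0.0354), with an adjusted p of 0.788 for both by limma. After scaling to spike-ins they were -0.90 ± 2.12 and -0.85 ± 2.12, a scaling that moved the median of all genes to -1.41 from 0.02 as deposited. Relative to that median they were 0.51 and 0.56 after scaling and 0.76 and 0.83 as deposited. *Gm19553*, an antisense gene inside *Pou5f1*, was at 15.0 to 20.6 FPKM in DR and 7.26 to 13.0 in D, and the library kit does not mark strand, so reads of the pair cannot be told apart.

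The other genes overlapped between DR and D. *Tdgf1* averaged 50.3 ± 13.5 FPKM in DR and 27.4 ± 14.4 in D, with *Tdgf1-ps1* at 23.4 to 25.7 and 5.56 to 13.6. *Nr5a2* averaged 17.7 ± 3.63 and 18.2 ± 3.00, *Zfp42* 17.5 ± 3.69 and 20.8 ± 5.14, *Zfp281* 17.8 ± 3.82 and 15.7 ± 3.44, and *Sall4* 8.10 ± 1.58 and 6.86 ± 2.40. *Tfcp2l1* averaged 6.24 ± 2.15 and 4.47 ± 0.657, *Tbx3* 4.17 ± 0.797 and 3.07 ± 0.706, and *Esrrb* 1.94 ± 0.751 and 1.37 ± 0.820. None of the 25 further pluripotency genes tested, 5 of Nodal signalling, 8 paralogs, 6 trophectoderm and 3 primitive endoderm genes was called in either fit. For *Nr5a2* the 95% interval of the log2 change as deposited was -0.663 to 0.577. *Tdgf1* and *Esrrb* were the highest and lowest of the 10 genes in D, as in untreated four-cell embryos of the amanitin experiment.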

How the data were processed

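RNA-seq libraries were made from pools of embryos with a SMART-seq v4 kit, which does not mark strand, and sequenced in pairs with ERCC spike-in RNA added where listed. The authors trimmed reads with Trim Galore, aligned them with STAR to mm10, counted them with featureCounts and deposited FPKM per gene (versions not given in the sources used here). Columns were grouped by name, and 4 columns that match no sample of a known group were left out. Reads behind FPKM were recovered as whole in the four-cell table and only in part elsewhere (40.3% to 45.3% of values within 0.01 of a whole read in two-cell and 41.4% to 50.5% in replication libraries), and precision is limited by these reads. log2(FPKM + 1) was tested with limma 3.58.1 in R 4.3.3, allowing the variance to follow the mean, with p-values adjusted by Benjamini-Hochberg over all genes that reached FPKM 1 in 3 or more libraries, and an adjusted p under 0.05 was called. Two-cell and replication values were scaled to spike-ins by the median of ratios, with FPKM as deposited beside them. Standard errors (±) follow log2 changes, and SD follows means. A 3-read floor covers counting error only. Further genes were named where called with the largest or smallest change of their list, at most 3 in each direction, and most-alike genes for members called in both α-amanitin experiments. Members and lists were chosen with earlier results of these data known.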

Additional observations from a re-analysis of the deposited data

Results flagged for a closer look

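The α-amanitin effect differed between the column names with and without R for 4 of the 7 genes tested in two-cell embryos, by an interaction term in limma on values scaled to spike-ins. The log2 difference was 2.47 for *Zfp281* (adjusted p = 0.00121), 2.01 for *Nr5a2* (0.0367), 1.58 for *Sall4* (0.0426) and 1.14 for *Esrrb* (0.023). Such a difference was called for 53.2% of all genes, so the count of 4 among 7 is near the background. Relative to the median of all genes the difference was 1.06 for *Zfp281*, 0.589 for *Nr5a2*, 0.159 for *Sall4* and -0.274 for *Esrrb*. As deposited only *Zfp281* was called (1.38, adjusted p = 0.0237), against 1.16 for *Nr5a2* (0.148), 0.76 for *Sall4* (0.238) and 0.60 for *Esrrb* (0.168). Over all genes 44.5% were called in that fit.

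*Tdgf1* in the treated two-cell library Am1, at 0.324 FPKM, stood apart from the other 5 treated libraries, which held 0 to 0.0857. It rests on 4 reads in the shallowest two-cell library, where 3 reads equal 0.243 FPKM. The rule used to find such values is set to flag about 1 in 20 groups by chance, and 20 groups were examined.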

How the results depend on the processing

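In four-cell embryos 1205 genes and 4 of the 10 genes were called, 732 genes with a pseudocount of 0.1, and 284 genes and 1 of the 10 with no filter. Leaving out 1 library gave 63 to 1493 genes and 1 to 6 of the 10, with 63 without S7, 93 without S15, 136 without S17, 529 without S18 and 707 without S8. Without an untreated library *Tbx3* and *Esrrb* no longer passed the filter. *Zfp42* was called in all 11 alternatives, and *Nr5a2* missed at a pseudocount of 0.1 (adjusted p = 0.0646). With no filter *Nr5a2* (0.0736), *Tfcp2l1* and *Tbx3* (0.0669 each) missed. The change of *Pou5f1* was -0.0767 by the median of ratios and -0.103 to 0.561 with 1 library left out. In two-cell embryos 12559 genes and 6 of the 10 were called, against 6210 and 4 by the median of ratios (3 higher, and *Nanog* lower at -1.64, adjusted p = 0.00425), 8158 genes as deposited, and 4613 and 3 in the columns without R (7018 genes there without NT3). Leaving out 1 library gave 11593 to 12664 genes and 5 to 6 of the 10, and -0.272 to 0.0283 for *Nanog*.

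The replication median of all genes was -1.41 scaled to spike-ins, -0.03 by the median of ratios and 0.02 as deposited. With it the changes turned positive by the median of ratios and as deposited for *Pou5f1* (0.726 and 0.777), *Nanog* (0.8 and 0.85), *Esrrb* (0.315 and 0.348), *Tfcp2l1* (0.317 and 0.365), *Sall4* (0.188 and 0.237), *Tdgf1* (0.924 and 0.978), *Zfp281* (0.122 and 0.174) and *Tbx3* (0.305 and 0.347). With 1 library left out they ran from -2.32 to 0.316 for *Pou5f1*, -2.3 to 0.413 for *Nanog*, -2.31 to 0.0644 for *Tfcp2l1* and -2.7 to 0.633 for *Tdgf1*, the highest each without D1. The causes were not tested. With the replicate block 11938 two-cell genes and 6 of the 10 were called, and same-numbered libraries did not deviate together (correlations -0.00437 to 0.0789). No paired analysis was possible in the other experiments because the four-cell columns carry no replicate numbers of the labels and the columns of D and DR share fewer than 2 numbers. Count models planned for raw counts and the early against late contrast were not run, as the values are FPKM and the columns do not show early or late. The voom fit (1202 four-cell genes, 4 of the 10) and the fits by column names were added after seeing the data.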
